A study of Mus musculus with 8 samples.

Results

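The genes described here are 9 members of the CXC chemokine system of the mouse: the ligands Cxcl1, Cxcl2, Cxcl3, Cxcl5, Cxcl12, Cxcl13 and Cxcl16 and the receptors Cxcr2 and Cxcr4. They were chosen by name from the 24405 genes listed in 8 single cell libraries of transplanted hearts, livers and kidneys and of recipient blood. All 9 were found, 3 of them (Cxcl2, Cxcl16 and Cxcr4) with a UMI in all 8 libraries. A UMI is a tag that marks a captured mRNA molecule. Levels are UMIs per 1000000 UMIs (CPM) summed over cells that passed a gate, and a gate is a minimum of UMIs of named marker genes in a barcode with at least 500 UMIs, which 47542 of 80000 barcodes had. The gates were Csf3r (at least 1 UMI) for neutrophils, Csf1r (at least 1) for macrophages and monocytes, and Dcn, Col3a1 and Col1a2 (at least 3 in sum) for stromal cells. Endothelial cells had at least 2 UMIs of Cdh5, Egfl7, Kdr, Emcn and Ptprb, and Kupffer cells, the resident macrophages of the liver, had at least 1 of Clec4f and at least 2 of Clec4f, Vsig4 and Timd4. T cells, gated by the Cd3 genes with no Csf3r or Csf1r, served as cells that should lack most of these genes.

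CXC chemokines are small secreted proteins that guide leukocytes. Cxcl1, Cxcl2, Cxcl3 and Cxcl5 bind Cxcr2, which draws neutrophils out of the marrow and into inflamed tissue and is taken off the cell surface after it binds ligand. Cxcl12, made by stromal cells, holds neutrophils and other leukocytes in the marrow through Cxcr4, Cxcl13 attracts B cells through Cxcr5, and Cxcl16 is a membrane-bound ligand of Cxcr6 that can be shed.

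Organs of BALB/c donors had been placed in C57BL/6 recipients with no immunosuppression, the liver in the place of the native organ and the heart and kidney at another site, and cells were taken on day 7. All labels give males of strain BALB/c aged 8 weeks. Each organ gave peripheral blood mononuclear cells (PBMC) and lymphocytes isolated from the graft (TIL). The liver and kidney also gave cells of the dissociated solid organ (parenchymal cells, PC). Graft tissue had been digested with type II collagenase, and TIL were isolated on a Ficoll-Paque density gradient. No digestion of blood is described. Graft and blood thus differ in preparation as well as in source, and these cannot be told apart here. The study set the organs side by side to ask how the immune response to a graft differs between them. There was 1 library per condition, so no difference has a replicate check and no test was made. Intervals in parentheses are at 95%, exact Poisson for CPM and conditional binomial for ratios and for UMIs per 1000 UMIs of another gene, and cover counting error only. The study took cells from 2 recipients per organ, and whether these were pooled is not given in the sources used here.

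Libraries held 10000 barcodes each and 3418722 to 19171264 UMIs. Some libraries stood apart. The hepatocyte markers summed to 749 CPM in the TIL library labelled heart but only to 76.2 CPM in the one labelled liver, where 6 of the 9, Alb among these, had no UMI (liver PC had 376 CPM). The cardiomyocyte markers ran the other way, at 26.1 and 176 CPM, and the Kupffer gate held 45 cells of the first library, none of the second and 54 of liver PC. Organ markers thus went against both labels, and these libraries are called labelled heart TIL and labelled liver TIL throughout. In the blood libraries the mature neutrophil markers summed to 100980.2 to 207748 CPM. T cells carried S100a8, which is among these markers, at 58657 CPM in heart PBMC, 24883 CPM in liver PBMC and 7823 CPM in kidney PBMC. UMIs of other cells were thus present in the gates. Doublets were not removed, and free RNA and doublets cannot be told apart here. Pairs of libraries shared 123 to 617 barcodes, or 1 to 600 among barcodes with at least 500 UMIs. Fewer cells of a type and less RNA per cell cannot be told apart where a library is taken as a whole.

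Cxcl1 (ENSMUSG00000029380), Cxcl2 (ENSMUSG00000058427), Cxcl3 (ENSMUSG00000029379) and Cxcl5 (ENSMUSG00000029371) lie on the plus strand within 146579 bases of chromosome 5 in GRCm38, at chr5:90759360-90905938, with Cxcl15, Pf4 and Ppbp, further members of the family, as the other 3 protein-coding genes wholly inside that span. Cxcl13 (ENSMUSG00000023078, chr5:95956951-95961068) is on the same chromosome, Cxcl12 (ENSMUSG00000061353, chr6:117168535-117181367) and Cxcl16 (ENSMUSG00000018920, chr11:70453983-70459984) are elsewhere, and Cxcr2 (ENSMUSG00000026180, chr1:74153989-74161246) and Cxcr4 (ENSMUSG00000045382, chr1:128588199-128592293) are both on chromosome 1. Promoters of 7 of the 9 genes were matched in RefSeq (GRCm38.p6), each 250 bases before and 50 after the start. In 3 of them, those of Cxcl1, Cxcl2 and Cxcl3, the NF-kB consensus, the site of a transcription factor of the inflammatory response, matched on both strands, as overlapping matches that together made the same 11 bases, GGGAATTTCCC. Such a match was held by 4.5% of 32817 RefSeq promoters. The stretches from 150 to 31 bases before the start are shown because Cxcl2 and Cxcl3 stand out in the graft libraries below. They are plus strand, 5′ to 3′, upstream of the annotated gene, with the matched bases in capitals.
Cxcl1 (chr5:90891095-90891214): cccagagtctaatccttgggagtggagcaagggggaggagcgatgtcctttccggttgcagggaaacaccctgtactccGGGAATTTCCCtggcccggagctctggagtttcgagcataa
Cxcl2 (chr5:90903749-90903868): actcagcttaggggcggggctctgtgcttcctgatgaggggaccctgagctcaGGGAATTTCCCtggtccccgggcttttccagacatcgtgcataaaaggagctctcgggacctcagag
Cxcl3 (chr5:90785951-90786070): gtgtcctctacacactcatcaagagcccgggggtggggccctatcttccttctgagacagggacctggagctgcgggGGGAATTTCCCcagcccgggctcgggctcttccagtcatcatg
The matched bases began 71, 97 and 73 bases before the start of Cxcl1, Cxcl2 and Cxcl3. The promoters of Cxcl12, Cxcl13, Cxcr2 and Cxcr4 held no such match in this window. The other 3 motifs, also searched on both strands, were the E-box CANNTG, which 72.3% of all promoters hold and those of Cxcl1, Cxcl3, Cxcl13 and Cxcr2 held, the C/EBP consensus TTGCNNAA (10.8%), found in Cxcl13, and the TATA box TATAAA (13.6%), found in Cxcl3, Cxcl13 and Cxcr4. A match is a description of the letters and not of binding.

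Over all barcodes Cxcr2 was higher in blood and Cxcl16 in the graft. Cxcr2 counted 6016, 3773 and 1217 UMIs in heart, liver and kidney PBMC and 0 to 529 in the 5 graft libraries. Cxcl16 counted 15, 33 and 5 UMIs in the PBMC libraries and 790 to 3290 in the graft libraries. Cxcl12 and Cxcl13 had no UMI in any PBMC library, which allows up to 0.399 CPM in heart PBMC, 0.446 CPM in liver PBMC and 0.869 CPM in kidney PBMC. Cxcl1, Cxcl3 and Cxcl5 had 6 UMIs or fewer in each PBMC library. Cxcl2 was not split this way, since kidney PBMC held it at 517 CPM (493 to 542), near labelled heart TIL at 489 CPM (475 to 504). The kidney grafts held few UMIs of most ligands. Kidney TIL and kidney PC had 37 and 17 UMIs of Cxcl2, against 1784 in kidney PBMC, 7 and 4 of Cxcl1, 1 and 0 of Cxcl3, 0 and 1 of Cxcl5, 19 and 9 of Cxcl12, and 15 and 0 of Cxcl13.

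**Figure D1:**
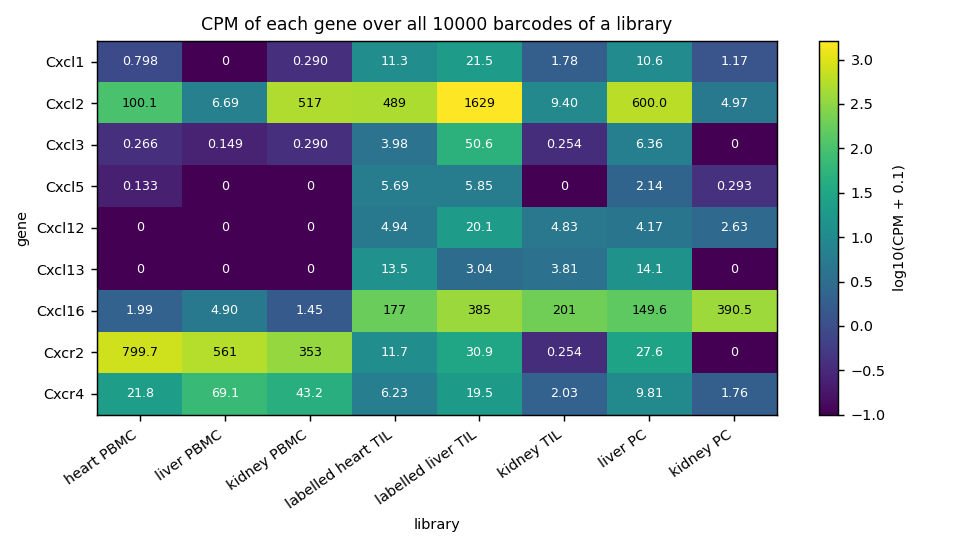
Level of each of the 9 genes (rows, CPM over all barcodes, printed in each cell and coloured by log10(CPM + 0.1)) in the 8 libraries (columns). Cxcl12 and Cxcl13 are at 0 in the 3 PBMC columns, Cxcr2 is highest in those columns, and Cxcl2 is highest in labelled liver TIL at 1629 CPM.

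Cxcl1 and Cxcl5, ligands of Cxcr2, were highest in stromal cells among the marker gates of the 3 graft libraries that held at least 20 such cells. Cxcl5 stood at 592 CPM (379 to 880.3) in the 33 stromal cells of labelled heart TIL, 458 CPM (307 to 658) in the 23 of liver PC and 101 CPM (61.5 to 155) in the 199 of labelled liver TIL. Its level in macrophages of the same libraries was 10.7, 2.5 and 5.33 CPM, so that stromal cells were 50.5-fold, 131-fold and 16.1-fold higher on the scale of CPM plus 1. In liver PC these 23 of 10000 cells carried 29 of the 41 Cxcl5 UMIs. Cxcl1 was at 542 CPM (339.9 to 821), 711 CPM (519 to 952) and 226 CPM (165 to 303) in the same 3 sets of stromal cells, 42.4-fold, 53.8-fold and 14.9-fold above macrophages. The stromal intervals of both genes overlap between labelled heart TIL and liver PC and lie above that of labelled liver TIL.

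Stromal cells held a minority of the Cxcl1 UMIs. Their part was 21.2%, 25.1% and 22.2% of those in cells of labelled heart TIL, labelled liver TIL and liver PC, and for Cxcl5 45.3%, 40.0% and 70.7%. The next highest gate for Cxcl1 was the Csf3r gate, with 26.7 CPM (14.2 to 45.7), 53.3 CPM (36.0 to 76.1) and 18.0 CPM (12.9 to 24.3), against 8.58, 10.3 and 4.95 CPM in T cells. Macrophages had 11.8 CPM (7.41 to 17.9), 14.2 CPM (9.11 to 21.2) and 12.2 CPM (9.82 to 15.1), so that the intervals of both gates met except in labelled liver TIL, where Csf3r cells were higher. In the Csf3r cells with at least 5% of UMIs in S100a8 and S100a9, described with Cxcl2, Cxcl1 stood at 58.5 CPM (7.09 to 211), 261 CPM (119 to 495) and 28.6 CPM (13.1 to 54.4), from 2, 9 and 9 UMIs, so that in labelled liver TIL it met the stromal level. Stromal markers outside the stromal gate, Col1a1, Mgp, Lum and Sparc, were all present in the stromal cells, Sparc at 2761, 4744 and 8123 CPM. Csf3r counted 1, 6 and 1 UMIs there.

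Cxcl12, the ligand of Cxcr4, followed the same cells. Its level was 369.8 CPM (207 to 609.9) in stromal cells of labelled heart TIL, 774 CPM (573 to 1024) in those of liver PC and 372 CPM (292 to 467) in those of labelled liver TIL. Macrophages of these libraries had 4.83, 2.23 and 14.8 CPM, and the stromal level was 63.6-fold, 240.4-fold and 23.6-fold higher. The stromal gate held 32.6%, 61.2% and 44.3% of the Cxcl12 UMIs in cells. Cxcl12 was also seen in endothelial cells of labelled liver TIL, at 234 CPM (101 to 460.3) from 8 UMIs, where Cxcl1 had 1 UMI and Cxcl5 had 0, whereas the 49 and 24 endothelial cells of labelled heart TIL and liver PC had no UMI of it. The endothelial cells of labelled liver TIL shared 7 of 31 barcodes with the stromal gate and lacked Clec4g and Stab2, genes of liver sinusoidal endothelium, which had 41 and 5 UMIs in those of labelled heart TIL and 25 and 10 in those of liver PC. The difference between these endothelial cells was not tested, and a count of 0 allows up to 57.6 CPM in labelled heart TIL and 45.3 CPM in liver PC.

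Cxcl13, which draws B cells, was highest in Kupffer cells, at 653 CPM (475 to 877) in the 45 of labelled heart TIL and 749 CPM (626 to 888) in the 54 of liver PC. Macrophages outside the Kupffer gate stood at 4.89 and 6.39 CPM, 111-fold and 101-fold lower. Kupffer cells were 0.465% and 0.540% of cells in these libraries and held 34.9% and 48.3% of the Cxcl13 UMIs in cells. Labelled liver TIL, with no Kupffer cell among 9337, had 26 Cxcl13 UMIs in all, 3.04 CPM, against 13.5 CPM for labelled heart TIL and 14.1 CPM for liver PC. Cxcl13 in stromal cells was 126 CPM (54.6 to 249) in liver PC and 15.1 CPM (3.11 to 44.1) in labelled liver TIL. The gate was not built on Cd5l and Marco, and these Kupffer markers stood at 2078 and 2360.3 CPM in the Kupffer cells of labelled heart TIL and at 3966 and 4720.4 CPM in those of liver PC.

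**Figure D2:**
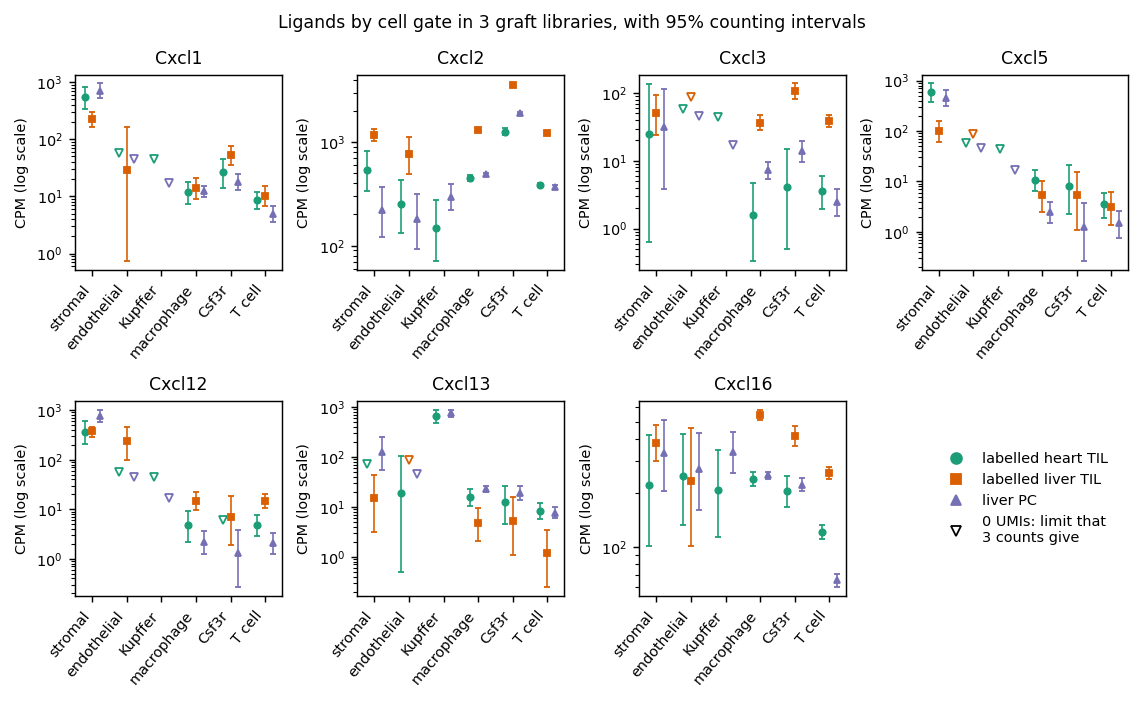
Level of each ligand (CPM, log axis) in 6 cell gates of labelled heart TIL (circles), labelled liver TIL (squares) and liver PC (triangles), with 95% counting intervals; open triangles mark the limit that 3 counts give where a gate had 0 UMIs. Cxcl1, Cxcl5 and Cxcl12 are highest in stromal cells of each library, Cxcl13 in Kupffer cells, Cxcl2 in Csf3r cells, and Cxcl16 is present in every gate shown, lowest in T cells of labelled heart TIL and liver PC.

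Cxcl16 was found in every gate of at least 20 cells in these 3 graft libraries. In macrophages it stood at 240.1 CPM (218 to 263) in labelled heart TIL, 251 CPM (239 to 263) in liver PC and 546 CPM (511 to 582) in labelled liver TIL. Stromal cells had 222, 332 and 382 CPM and Csf3r cells 205, 223 and 418 CPM, so that macrophages were 1.17-fold, 1.13-fold and 1.31-fold above Csf3r cells. As log2 ratios these were 0.22 (-0.09 to 0.55), 0.17 (0.03 to 0.31) and 0.38 (0.18 to 0.60), so that in labelled heart TIL no difference was detectable. T cells lay lower, at 121, 65.2 and 257 CPM. Counted per 1000 UMIs of S100a8, Csf3r cells had 22.9 (18.6 to 28.0), 18.8 (17.2 to 20.5) and 54.3 (47.5 to 62.0) in the same order, and Csf1r cells without Csf3r had 59.5 (53.8 to 65.7), 56.2 (53.3 to 59.3) and 176 (163 to 189). T cells had 30.5 (27.8 to 33.4), 18.4 (16.9 to 20.1) and 82.5 (76.1 to 89.4). Unlike in CPM, they lay above Csf3r cells in labelled liver TIL, and the intervals met in the other libraries. S100a8 was itself lower in CPM in T cells than in Csf3r cells of each library. This measure therefore cannot compare the Cxcl16 level of the gates. In CPM, the excess of macrophages over Csf3r cells in which S100a8 and S100a9 made up at least 5% of UMIs was a log2 of 2.99, 1.48 and 1.64, in place of 0.22, 0.17 and 0.38 over all Csf3r cells. Those cells held 1, 28 and 6 Cxcl16 UMIs, at 29.3 CPM (0.741 to 163), 89.1 CPM (59.2 to 129) and 174 CPM (63.8 to 379).

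In the kidney grafts Cxcl16 had the most UMIs of the 9 genes. Kidney PC held 390.5 CPM over all barcodes and kidney TIL 201 CPM, 88.5% and 69.2% of it in barcodes under 500 UMIs. Macrophages of kidney PC stood at 483 CPM (316 to 708) and those of kidney TIL at 237 CPM (142 to 369). Csf1r cells of the 3 PBMC libraries had 7.38 CPM (2.71 to 16.1) in heart, 11.0 CPM (5.28 to 20.3) in liver and, from 1 UMI, 21.8 CPM (0.551 to 121) in kidney. Of these blood cells 58.3%, 50.3% and 20.4% also passed the Csf3r gate, so the gate may hold other cell types in blood than in the graft. Every graft library was above every PBMC library in this gate. The Cxcl16 gene overlaps Zmynd15 on the other strand, and whether reads were counted by strand is not given in the sources used here.

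Cxcl2 had the most UMIs of the 9 genes, 32613 in all. In Csf3r cells it was at 109 CPM (99.2 to 120.4) in heart PBMC, 7.73 CPM (4.85 to 11.7) in liver PBMC and 520.1 CPM (401 to 664) in kidney PBMC. The graft libraries had more, with 1261 CPM (1164 to 1365) for labelled heart TIL, 1898 CPM (1842 to 1954) for liver PC and 3512 CPM (3359 to 3671) for labelled liver TIL. All 3 graft values lay above all 3 blood values, although blood alone spanned 7.73 to 520.1 CPM. Graft cells had also been through collagenase digestion, and the part of this was not tested. The log2 ratio to PBMC of the same labelled organ was 3.52 (3.35 to 3.71), 7.76 (7.34 to 8.61) and 8.65 (8.22 to 9.50), and the last 2 share the liver PBMC library. Kidney grafts gave no ratio, since 9 cells of kidney TIL and 3 of kidney PC passed the gate and 20 were required.

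The Csf3r gate held UMIs of other cell types in the graft. S100a8 in it was at 8959, 7686 and 11870.4 CPM in labelled heart TIL, labelled liver TIL and liver PC, against 3978, 3116 and 3541 CPM in T cells, and the macrophage gene C1qa reached 947, 1500.2 and 1202 CPM, against 7.08, 3.51 and 8.13 CPM in the 3 PBMC libraries. The share of UMIs in S100a8 and S100a9 had a median of 0.620%, 0.598% and 0.992% in these graft cells and of 17.6%, 12.4% and 9.69% in Csf3r cells of heart, liver and kidney PBMC. Csf3r cells with at least 5% numbered 42, 46 and 242 in the graft and 4278, 3098 and 98 in PBMC, a gate chosen after the values were seen. In these cells Cxcl2 stood at 7489 CPM (6599.5 to 8465), 15016 CPM (13750.4 to 16366) and 7753 CPM (7448 to 8067) in the graft and at 111, 9.20 and 834 CPM in PBMC of heart, liver and kidney. The log2 ratios were then 6.07, 10.52 and 9.57.

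Cxcl2 UMIs were seen in 88.1%, 89.1% and 84.7% of those S100-rich graft cells (median depth 712, 688 and 1134 UMIs), and in 85.7% (71.5 to 94.6), 87.0% (73.7 to 95.1) and 78.5% (72.8 to 83.5) after each cell was thinned to 500 UMIs. T cells of the same libraries (836, 787 and 1485 UMIs) had 25.4%, 52.3% and 33.4%, or 16.2%, 38.8% and 14.4% when thinned. The S100-rich cells of heart, liver and kidney PBMC had 5.17%, 0.420% and 24.5% when thinned. Percentages in parentheses are exact binomial intervals, and no cell was too shallow for thinning.

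Macrophages and T cells of the graft carried Cxcl2 in a proportion to S100a8 within 2-fold of that in Csf3r cells. Per 1000 S100a8 UMIs, labelled heart TIL had 141 (129 to 153) in Csf3r cells, 131 (115 to 149.6) in S100-rich cells, 105 (96.7 to 113) in Csf1r cells without Csf3r and 96.7 (91.7 to 102) in T cells. Labelled liver TIL had 457 (433 to 482), 312 (283 to 345), 404 (383 to 426) and 391 (375 to 408). Liver PC had 159.9 (155 to 165), 145 (139 to 152), 85.2 (81.5 to 89.0) and 104. Within a library these 4 gates differed by less than 2-fold in this proportion. Stromal cells had 286 (169 to 464), 419.5 (358 to 489.9) and 143 (75.3 to 251) in labelled heart TIL, labelled liver TIL and liver PC. The first of these, from 22 UMIs, lay above the other gates of its library. In CPM of Cxcl2, T cells and S100-rich cells of liver PC stood at 368 and 7753. S100-rich cells were chosen by S100a8 and S100a9, and S100a8 was itself lower in CPM in T cells than in Csf3r cells. This proportion therefore cannot compare the Cxcl2 level of the gates. The source of Cxcl2 UMIs in macrophages and T cells was not tested. Between libraries the proportion over all barcodes ran from 0.108 (0.0786 to 0.144) in liver PBMC through 0.966 in heart PBMC and 11.9 in kidney PBMC to 103, 114 and 423 in labelled heart TIL, liver PC and labelled liver TIL. Kidney TIL and kidney PC had 88.5 (61.5 to 124) and 44.3 (25.5 to 71.8), from 37 and 17 Cxcl2 UMIs. The high value of kidney PBMC rested on 1784 UMIs, 87.9% of them in barcodes under 500 UMIs.

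**Figure D3:**
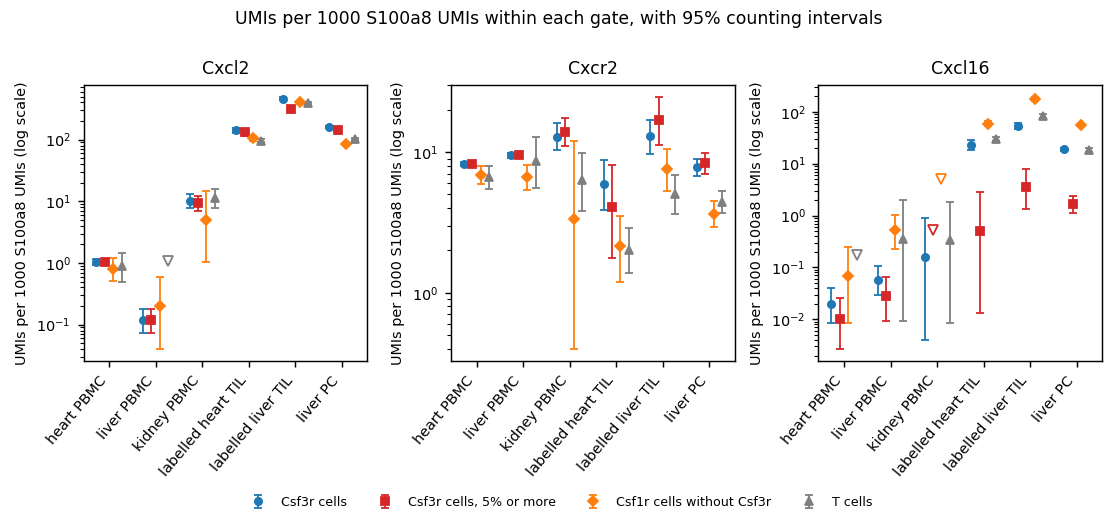
UMIs of Cxcl2, Cxcr2 and Cxcl16 per 1000 S100a8 UMIs (log axis) in Csf3r cells (circles), Csf3r cells with at least 5% of UMIs in S100a8 and S100a9 (squares), Csf1r cells without Csf3r (diamonds) and T cells (triangles) of 6 libraries, with 95% counting intervals; open triangles mark the limit that 3 counts give for a count of 0. In the graft libraries the gates lie close for Cxcl2 and spread apart for Cxcl16. For each gene the squares stand for cells chosen for high S100a8, the unit of the axis.

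Cxcl3, a neighbour of Cxcl2 and a ligand of the same receptor, was rarer, with 596 UMIs in all, of which labelled liver TIL held 432, liver PC 122 and labelled heart TIL 37. Csf3r cells had 108 CPM (82.9 to 139) in labelled liver TIL, 14.1 CPM (9.72 to 19.8) in liver PC and 4.11 CPM (0.498 to 14.8) in labelled heart TIL, and 1 UMI in all 3 PBMC libraries together. Stromal cells had 50.3 CPM (24.1 to 92.5), 31.6 CPM (3.83 to 114) and 24.7 CPM (0.624 to 137), from 10, 2 and 1 UMIs. In the S100-rich cells it was at 638, 92.3 and 58.5 CPM, from 22, 29 and 2 UMIs. Per 1000 S100a8 UMIs Cxcl3 stood at 14.1, 11.4 and 12.6 in Csf3r cells, Csf1r cells without Csf3r and T cells of labelled liver TIL and at 1.19, 1.78 and 0.698 in those of liver PC. The last 500 bases of Cxcl2 transcripts share 7.63% of their 50-base words with Cxcl3, and reads aligned to both would have been removed.

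Cxcr2, the receptor of these ligands, had its highest levels in blood. Csf3r cells had 872 CPM (842 to 902) in heart PBMC, 627 CPM (599 to 657) in liver PBMC and 658 CPM (523 to 818) in kidney PBMC. In the graft they had 53.4 CPM (34.9 to 78.3) in labelled heart TIL, 92.8 CPM (80.9 to 106) in liver PC and 99.5 CPM (75.2 to 129) in labelled liver TIL. Blood and graft did not overlap, heart PBMC stood above liver PBMC, and the intervals of liver and kidney PBMC met, as did those of liver PC and labelled liver TIL. The log2 ratios to PBMC were -4.00 (-4.64 to -3.47), -2.74 (-2.97 to -2.55) and -2.64 (-3.07 to -2.27). T cells of heart and liver PBMC, at 392 CPM (323 to 471) and 215 CPM (138 to 319), carried more Cxcr2 than the Csf3r cells of any graft library. S100a8 moved with Cxcr2 in this gate, with log2 ratios of -3.55, -2.48 and -3.11 in that order, and so did Retnlg, a secreted product of mature neutrophils, with -4.84, -2.17 and -4.03.

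Among S100-rich Csf3r cells the gap in Cxcr2 was smaller, and in labelled liver TIL it was not detectable. Its level was 234 CPM (101 to 461) in labelled heart TIL, 446 CPM (375 to 526) in liver PC and 812 CPM (539 to 1173) in labelled liver TIL, from 8, 140 and 28 UMIs. PBMC of heart, liver and kidney had 889 CPM (859 to 919.9), 751 CPM (716 to 788) and 1236 CPM (980.2 to 1538). Labelled liver TIL thus lay within the range of blood, and the log2 ratios became -1.92 (-3.14 to -0.95), -0.75 (-1.01 to -0.50) and 0.11 (-0.48 to 0.65). S100a8 in the same cells gave -0.91, -0.55 and -0.70. Per 1000 S100a8 UMIs over all barcodes, Cxcr2 counted 7.72 (7.52 to 7.91), 9.04 (8.75 to 9.33) and 8.10 (7.65 to 8.57) in heart, liver and kidney PBMC. The graft libraries had 2.46 (2.02 to 2.97) for labelled heart TIL, 5.23 (4.79 to 5.70) for liver PC and 8.01 (7.07 to 9.05) for labelled liver TIL. Per 1000 Csf3r UMIs Cxcr2 was 726, 480.3 and 766 in PBMC and 218, 378 and 388 in the graft. By each of these 4 measures labelled heart TIL was the lowest of the 6 libraries in Cxcr2, and the size of the difference followed the choice of cells.

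Markers of cell type and maturity moved with this result. In the Csf3r gate 9, 8 and 7 of the 10 mature neutrophil markers were at least 2-fold lower in labelled heart TIL, labelled liver TIL and liver PC than in PBMC, beside 14.7%, 17.2% and 9.0% of all genes. Among S100-rich cells 6, 5 and 0 were lower, beside 50.5%, 51.1% and 15.2% of all genes, so that in the TIL libraries the share was near that of all genes. The list holds S100a8 and S100a9, which chose the S100-rich cells, and S100a9 is among the 6. G0s2, an inhibitor of lipid breakdown, was higher in each of these comparisons, with log2 ratios of 2.34, 3.36 and 3.26 in the gate and 4.95, 5.65 and 5.10 in S100-rich cells, and Il1r2 was higher in S100-rich cells of labelled liver TIL (2.11) and liver PC (1.72), as was Lcn2 (1.18) in liver PC. The macrophage and monocyte markers with a 2-fold higher value numbered 7, 5 and 5 of 10 in the gate, with 0, 1 and 2 lower, beside 33.8%, 15.6% and 23.9% of all genes higher. In S100-rich cells 6, 3 and 3 of the 9 with 10 UMIs were higher and 1, 4 and 2 lower, beside 22.9%, 17.2% and 11.0% of all genes higher. C1qa, C1qb and C1qc were higher in all 3. Ccr2 was counted lower in all 3, from 1 UMI in labelled heart TIL and 3 UMIs in labelled liver TIL. Lyz2 was lower in labelled liver TIL and liver PC, and Ly6c2 and, from 3 UMIs, Cd68 in labelled liver TIL. The neutrophil precursor markers, granule genes made in the marrow such as Mpo and Elane, summed to 1037 CPM in Csf3r cells of labelled heart TIL, 705 CPM in liver PC and 35.6 CPM in labelled liver TIL, against 682, 155 and 959 CPM in heart, liver and kidney PBMC. All 8 of them were at least 2-fold higher in S100-rich cells of liver PC than of liver PBMC, beside 11.0% of all genes, and in labelled heart TIL all 7 that reached 10 UMIs, beside 22.9%. In labelled liver TIL 4 reached 10 UMIs, of which none was higher and 3 were lower in the gate, beside 15.6% and 17.2% of all genes. In its S100-rich cells Prtn3 and Camp had 0 UMIs, Ltf 1 and Ngp 3, too few to give a direction. The part of these cells in the levels of Cxcr2 was not tested.

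**Figure D4:**
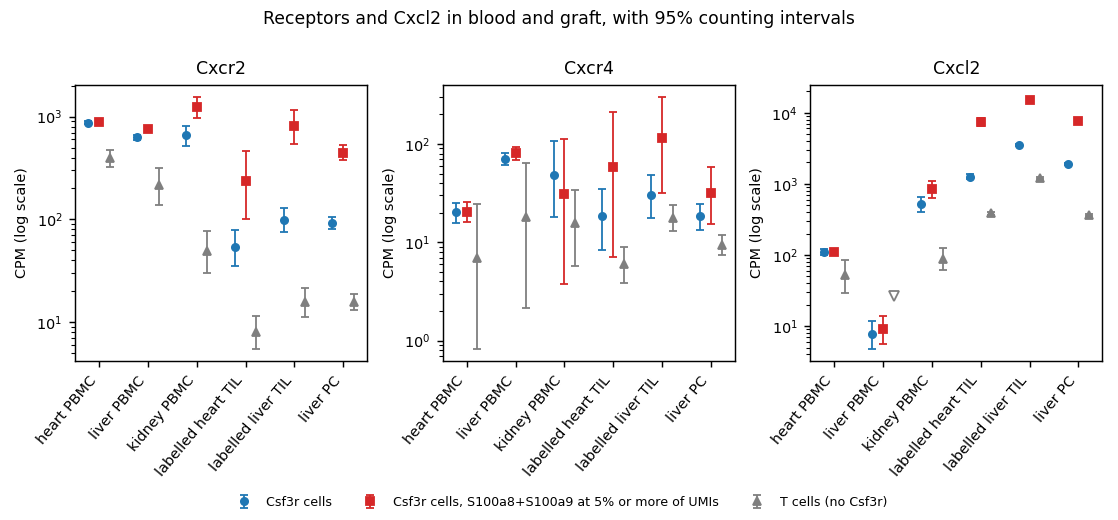
Level of Cxcr2, Cxcr4 and Cxcl2 (CPM, log axis) in Csf3r cells (circles), Csf3r cells with at least 5% of UMIs in S100a8 and S100a9 (squares) and T cells (triangles) of 6 libraries, with 95% counting intervals; an open triangle marks the limit that 3 counts give for a count of 0. The graft circles of Cxcr2 lie below all blood circles while the square of labelled liver TIL lies within the range of blood squares, and graft Cxcl2 lies above blood with either symbol.

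Cxcr4, the receptor of Cxcl12, was low in all cells, with 1205 UMIs over the 8 libraries. Csf3r cells had 20.2 CPM (15.9 to 25.3) in heart PBMC, 71.0 CPM (61.5 to 81.5) in liver PBMC and 48.8 CPM (17.9 to 106) in kidney PBMC. Graft levels were 18.5 CPM (8.45 to 35.1) in labelled heart TIL, 18.4 CPM (13.3 to 24.8) in liver PC and 30.2 CPM (17.6 to 48.4) in labelled liver TIL. Heart PBMC lay among the graft values and below liver PBMC, and T cells of the graft had 6.06, 9.40 and 17.8 CPM. The log2 ratios to PBMC were -0.12 (-1.31 to 0.87), -1.89 (-2.46 to -1.47) and -1.21 (-2.04 to -0.52). Among S100-rich cells they were 1.47 (-1.55 to 3.42), -1.31 (-2.42 to -0.42) and 0.53 (-1.36 to 1.91), from 2, 10 and 4 graft UMIs. With these few UMIs a direction was not detectable in the S100-rich cells of either TIL library, while liver PC was lower than liver PBMC in both sets of cells. Over all barcodes, Cxcr4 UMIs come from all cell types. Of those in cells, the Csf3r gate held 9 of 56, 43 of 188 and 17 of 164 in labelled heart TIL, liver PC and labelled liver TIL. T cells held 24, 76 and 45. In heart, liver and kidney PBMC the Csf3r gate held 77 of 135, 202 of 343 and 6 of 24. Set against S100a8 over all barcodes of these 6 libraries, every graft value lay above every blood value, although the interval of labelled heart TIL met those of liver and kidney PBMC. The part of the cell mix in this was not tested. There were 0.210 (0.179 to 0.245), 1.11 (1.02 to 1.22) and 0.992 (0.839 to 1.16) Cxcr4 UMIs per 1000 S100a8 UMIs in heart, liver and kidney PBMC and 1.31 (0.995 to 1.70), 1.86 (1.60 to 2.14) and 5.07 (4.33 to 5.90) in labelled heart TIL, liver PC and labelled liver TIL. Within these 3 graft libraries T cells had 1.52 (0.975 to 2.27), 2.65 (2.09 to 3.32) and 5.70 (4.16 to 7.64) and Csf3r cells 2.06 (0.943 to 3.92), 1.55 (1.12 to 2.09) and 3.93 (2.29 to 6.30). S100a8 was itself lower in CPM in T cells than in Csf3r cells of each library. This measure therefore cannot compare the Cxcr4 level of both gates.

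Counts of members at least 2-fold apart, with at least 10 UMIs in the larger sum, were read against all genes. In Csf3r cells of labelled heart TIL over heart PBMC, 5 members reached 10 UMIs; Cxcl1, Cxcl2 and Cxcl16 were higher, as were 33.8% of 8812 genes, and Cxcr2 was lower, as were 14.7%. In labelled liver TIL, 6 reached 10 UMIs; Cxcl1, Cxcl2, Cxcl3 and Cxcl16 were higher, with 15.6% of 9181 genes, and both receptors lower, with 17.2%. In liver PC, 7 did; Cxcl1, Cxcl2, Cxcl3, Cxcl13 and Cxcl16 were higher, with 23.9% of 10198 genes, and both receptors lower, with 9.0%. The median log2 ratio of the members counted was 3.52, 6.05 and 4.25, beside 0.51, 0.08 and 0.39 over all genes tested. Some members had fewer than 10 UMIs in PBMC and entered through the graft alone. These were Cxcl1 in each library, Cxcl3 and Cxcl13 where counted, and Cxcl16 in labelled heart TIL. The counts of higher members and the medians are therefore partly set by this filter. Cxcl13 had 45 UMIs in Csf3r cells of liver PC but 1 UMI in the S100-rich cells among them.

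Among S100-rich cells the counts shrank with the UMIs, and since a gene enters through the larger sum, a gene at 0 in the smaller one is counted as lower. Labelled heart TIL had 3 members with 10 UMIs, Cxcl2 and, from 2 graft UMIs, Cxcr4 higher (22.9% of all genes) and Cxcr2 lower (50.5%). Labelled liver TIL had 4, of which Cxcl2 and Cxcl3 were higher (17.2%) and none lower (51.1%). Liver PC had 5, with Cxcl2, Cxcl3 and Cxcl16 higher (11.0%) and Cxcr4 lower (15.2%). The median over all genes was -1.08, -1.15 and 0.00.

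Within graft libraries, Csf3r cells over macrophages had 4 members at least 2-fold higher in labelled heart TIL (Cxcl1, Cxcl2, Cxcr2 and Cxcr4, beside 2.01% of all genes), 4 in labelled liver TIL (Cxcl1, Cxcl2, Cxcl3 and Cxcr2, beside 1.62%) and 3 in liver PC (Cxcl2, Cxcr2 and Cxcr4, beside 1.03%), and none at least 2-fold lower (6.28%, 5.41% and 0.982%). In labelled heart TIL Cxcl1 and Cxcr4 rested on 13 and 9 UMIs in Csf3r cells, and their intervals met those of macrophages. Cxcl2 was 2.78-fold, 2.67-fold and 3.88-fold higher. Of liver PC Csf3r cells, 41.9% also carried Csf1r, against 21.3% and 20.2% in the TIL libraries, and with cells of a single gate only the log2 ratio of Cxcl2 in liver PC was 2.95 in place of 1.96. Stromal cells over macrophages had Cxcl1, Cxcl5 and Cxcl12 higher in each library (17.7%, 9.78% and 18.5% of all genes) with Cxcl13 also higher in liver PC, while Cxcl3 passed 2-fold there from 2 stromal UMIs, with an interval that holds the macrophage level. Cxcl2 was lower in stromal cells of liver PC (44.4% of all genes), at 221 CPM (121 to 371) against 488 CPM. Cxcl13 and Cxcr4 in labelled heart TIL (42.6%) and Cxcr2 and Cxcr4 in liver PC had 0 stromal UMIs, which allows more than the macrophage level, so that no direction was detectable, and none was 2-fold lower in labelled liver TIL (15.9%). Kupffer cells over other macrophages had only Cxcl13 higher in both libraries (12.0% and 12.3%). Cxcl2 was lower in those of labelled heart TIL (35.7%), at 148 CPM (71.2 to 273) against 458 CPM. The other members counted 2-fold lower, Cxcl1, Cxcl5, Cxcr2 and Cxcr4 in labelled heart TIL and Cxcl1, Cxcl3, Cxcl5 and Cxcl12 in liver PC (29.3%), had 0 UMIs in Kupffer cells, which allows up to 44.5 and 17.1 CPM, more than the level in other macrophages.

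The early NF-kB target genes, a list of 12 chosen for their known induction with Cxcl2, were mostly higher in Csf3r cells of labelled liver TIL and liver PC than in those of PBMC. At least 2-fold higher were 11 of 12 in both, beside 15.6% and 23.9% of all genes, and 5 of 12 in labelled heart TIL, beside 33.8%, with none lower. Ccl3 and Ccl4, chemokines for monocytes and T cells, had log2 ratios of 5.06 and 5.53 in labelled heart TIL, 6.01 and 6.04 in labelled liver TIL and 6.34 and 5.35 in liver PC. Il1b, the cytokine made by activated myeloid cells, had -0.87, 0.54 and 0.54. Its level was 3532 and 2108 CPM in heart and liver PBMC and 1931, 3057 and 3067 CPM in the graft. Among S100-rich cells Il1b had 1.56, 2.44 and 2.18, and 11, 10 and 11 of the 11 list genes with 10 UMIs were higher, beside 22.9%, 17.2% and 11.0% of all genes. The median log2 ratio of the list was 0.60, 3.36 and 2.98 in the gate and 2.67, 4.51 and 4.14 in S100-rich cells, beside medians over all genes of 0.51, 0.08 and 0.39 and of -1.08, -1.15 and 0.00. Against macrophages of the same library, 4, 3 and 4 of the 12 were at least 2-fold higher in Csf3r cells and none lower. The share of all genes higher was 2.01%, 1.62% and 1.03%. Ccl3 and Ccl4 were not among these genes. The part of macrophage and T cell RNA in the rise over PBMC was not tested.

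The other CXC ligands and receptors gave a mixed picture. Cxcl9, an interferon-induced ligand of Cxcr3, was higher in Csf3r cells of all 3 graft libraries, with log2 ratios of 5.68, 5.43 and 5.39 in labelled heart TIL, labelled liver TIL and liver PC. Ppbp, a platelet chemokine, was at 0, 7.11 and 0 CPM there, from 0, 4 and 0 UMIs, and at 20.5 and 26.4 CPM in heart and liver PBMC. Cxcl10, another ligand of Cxcr3, had log2 ratios of 0.52, 2.92 and 3.29. Cxcr1, another chemokine receptor of neutrophils, was at 0, 5.33 and 1.28 CPM in graft Csf3r cells, from 0, 3 and 3 UMIs. Heart and liver PBMC had it at 17.3 and 22.8 CPM. Among S100-rich cells it was at 0, 29.0 and 9.55 CPM, from 0, 1 and 3 UMIs, against 17.7 and 28.0 CPM, too few to give a direction in labelled liver TIL. Cxcr3 and Cxcr6, receptors of T cells, were higher in the graft gate with log2 ratios of 1.41 to 2.83, as were all T cell markers with 10 UMIs in it, 6 of 6, 6 of 6 and 7 of 7, beside 33.8%, 15.6% and 23.9% of all genes. S100-rich cells carried these markers too, with 5, 6 and 6 of 6 at least 2-fold higher than in PBMC, beside 22.9%, 17.2% and 11.0% of all genes, and a median log2 ratio of 1.44, 2.23 and 2.56. Within the same 3 graft libraries none of the other CXC ligands, Cxcl9 among them, was counted 2-fold higher or lower in Csf3r cells than in macrophages. The share of all genes higher there was 2.01%, 1.62% and 1.03%. The part of T cell and macrophage RNA in the levels of the 9 genes and of these other ligands and receptors was not tested.

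Among genes of neutrophil retention, release and ageing, Selplg and Rgs2 were lower in the Csf3r gate of all 3 graft libraries. Selplg, an adhesion ligand of leukocytes, had log2 ratios of -2.20, -1.36 and -1.26 in labelled heart TIL, labelled liver TIL and liver PC. Rgs2, a regulator of receptor signalling, had -1.24, -1.94 and -1.91. Among S100-rich cells Selplg had -0.83, -1.06 and -0.45 and Rgs2 -0.86, -1.73 and -1.68, so that neither was 2-fold lower in labelled heart TIL, nor Selplg in liver PC. The integrin genes Itgam and Itgb2 lay between -0.85 and 0.17. Of the 11 genes of this list with 10 UMIs, 3, 6 and 4 were at least 2-fold lower in the gate, beside 14.7%, 17.2% and 9.0% of all genes, and 1, 2 and 2 higher, beside 33.8%, 15.6% and 23.9%. Among S100-rich cells 2 of 10, 3 of 10 and 2 of 11 were lower, beside 50.5%, 51.1% and 15.2% of all genes, a smaller share than that of all genes in both TIL libraries.

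Over 33 profiles, each the cells of a gate in a library with at least 20 of them, the genes most like each member were found by Pearson correlation of log2(CPM + 1). The profiles share libraries, cells and free RNA, so these values only describe likeness. Cxcl12 was most like Htra3 (r = 0.985), Cpe (0.984), Ptgis (0.984), Eln (0.962) and Lum (0.960), and Cxcl5 most like Mfap4 (0.969), Col6a1 (0.965), Serpinb2 (0.961), Cygb (0.952) and Lox (0.949). Cxcl1 was most like Fblim1 (0.916), Ptgis (0.916), Cdh11 (0.915), Cxcl5 (0.911) and Eln (0.911), and Cxcl3 most like Pdpn (0.895), Ankrd55 (0.863), Cxcl1 (0.849), Lox (0.833) and Tnnt2 (0.832). Cxcl2 stood apart from these, nearest to Ccrl2 (0.846), G0s2 (0.784), Ppp1r15a (0.768), Ccl4 (0.740) and Bhlhe40 (0.740). Cxcl13 had Itga9 (0.855), Cyp3a11 (0.840), Serpina1c (0.834), Il1a (0.830) and Gc (0.829), of which Cyp3a11, Serpina1c and Gc are made by hepatocytes. Cxcl16 had C1qa (0.933), C1qb (0.914), Ccl7 (0.913), Cxcl9 (0.911) and Aif1 (0.902), Cxcr2 had Pfkfb4 (0.922), Ifitm1 (0.922), Gm16556 (0.922), Oasl2 (0.894) and Ccpg1 (0.890), and Cxcr4 had Sorl1 (0.860), Mmp9 (0.838), Pde1b (0.831), Tmcc1 (0.830) and Vsir (0.826). Between members, Cxcr2 and Cxcr4 had r = 0.701 and Cxcr2 and Cxcl16 r = -0.712.

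Exchanging the labels of both TIL libraries left the direction of Cxcr2 and Cxcl2 in place. The library labelled liver TIL set against heart PBMC gave log2 ratios of -3.12 for Cxcr2 and 4.99 for Cxcl2, and the library labelled heart TIL set against liver PBMC gave -3.53 and 7.18. Cxcr4, at -0.12 in labelled heart TIL and -1.21 in labelled liver TIL with the labels as given, stood at 0.56 for the library labelled liver TIL over heart PBMC and -1.89 for the library labelled heart TIL over liver PBMC.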

How the data were processed

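The authors captured single cells by Microwell-seq, processed reads with bcl2fastq and the Drop-seq core tools, discarded reads with a barcode base quality under 10, and used STAR with GRCm38 for alignment. Reads with several alignments were dropped, and within a gene UMIs at 1 edit from each other were joined. They deposited raw UMI counts for each gene and barcode, without normalization. GENCODE annotation was used to tag aligned reads. The use of strand is not given in the sources used here.

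From these counts, barcodes with at least 500 UMIs were gated by marker genes, and UMIs were summed over each gate of at least 20 cells. Ratios carried a pseudocount of 1 CPM, and a difference of size was at least 2-fold with at least 10 UMIs in the larger sum. Intervals at 95% were exact Poisson for CPM, exact binomial for shares and conditional binomial for ratios, and a count of 0 was limited by 3 counts. For shares of cells with a UMI, 500 UMIs were drawn from each cell (seed 0). The genes named are the 9 members, genes of the lists counted, and the 5 genes most like each member among genes with at least 50 UMIs over the profiles and 20 CPM in any. Members and lists were chosen with earlier results of these data known. Marker genes of the endothelial and Kupffer gates were a choice made here, and the gates by S100a8 and S100a9 at 5% and 3% were added after the data were seen. The counting of size differences was tested on simulated data. Gene positions came from GENCODE and promoters from RefSeq. A single member of the gene lists is not reported here. Hearts' parenchymal cells and bulk RNA were not analysed here. Python 3.11.15, numpy 2.4.6, pandas 2.3.3, scipy 1.17.1 and matplotlib 3.10.9 were used.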

Additional observations from a re-analysis of the deposited data

How the results depend on the processing

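With 1 library per condition no value here has a replicate check, intervals cover counting error alone, and the counts of Cxcr4, Cxcl3, Cxcl5 and of the S100-rich graft cells limit what can be seen. No paired analysis was possible because each condition had a single library and no test was made. Of 236 values of 26 log2 ratios under alternatives, 161 moved within their counting interval, 73 moved beyond it, and 2, of ratios that had been at least 2-fold (Cxcr2 and Cxcr4 in labelled liver TIL), moved to the other sign. With these 2, 6 values in all had another sign, the rest being of the Cxcr4 ratio to heart PBMC. That ratio was -0.12 for labelled heart TIL and became 1.65, 1.30 and 1.47. With the TIL labels exchanged it was 0.56, for the library labelled liver TIL. The cause was not tested. No ratio moved beyond its interval with a pseudocount of 0.1 CPM. A limit of 10% on mitochondrial UMIs removed no cell behind these ratios, so its 26 values, counted among the 161, were the same by construction. Ratios below are log2, of the Csf3r gate in graft over PBMC unless cells are named. The word neutrophils below stands for cells of that gate unless another gate is given. In labelled heart TIL, labelled liver TIL and liver PC only 9.33%, 7.88% and 21.1% of them were S100-rich.

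With a floor of 1000 UMIs, Cxcr2 was -4.71 in labelled heart TIL and -2.36 in liver PC, Cxcl2 was 3.07 in labelled heart TIL, and Cxcl2 of neutrophils over macrophages was 1.22, 1.27 and 1.83 in labelled heart TIL, labelled liver TIL and liver PC. With 1 UMI more in each gate, Cxcr2 was -2.40, -0.91 and -1.95 in the same order, Cxcr4 was 1.65 and -0.05 in the TIL libraries, and Cxcl2 was 5.75 and 9.57 there. Under that setting Cxcl2 of neutrophils over macrophages was 4.45, 3.24 and 3.28, Cxcl16 of macrophages over neutrophils 1.02, 0.90 and 0.36, Cxcl12 of stromal cells over macrophages 8.67 and 5.63 in the TIL libraries, and Cxcl1 and Cxcl5 likewise 7.15 and 9.45 in labelled heart TIL. With neutrophils gated by 5 other markers without Csf1r, Cxcr2 was -3.38, -1.80 and -2.24, Cxcr4 was -0.34 in labelled liver TIL, and Cxcl2 was 4.46 and 9.77 in the TIL libraries. With the TIL labels exchanged, Cxcr2 was -3.12 over heart PBMC and -3.53 over liver PBMC, and Cxcl2 was 4.99 and 7.18. With cells in exactly 1 gate, Cxcr2 was -2.25 in liver PC, Cxcl2 of neutrophils over macrophages 1.73, 1.71 and 2.95, and Cxcl16 of macrophages over neutrophils 0.93 in liver PC. As a mean over cells, Cxcr2 was -2.34 in liver PC, Cxcl2 3.83 in labelled heart TIL, Cxcl2 of neutrophils over macrophages 2.10 in liver PC and Cxcl13 of Kupffer cells 6.13 in liver PC. Thinned to 500 UMIs, Cxcr4 was -1.14 in liver PC and Cxcl2 3.75 in labelled heart TIL, and without barcodes shared between libraries Cxcl2 of neutrophils over macrophages was 1.51 in labelled liver TIL.

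In Csf3r cells with 5% or more of S100a8 and S100a9, Cxcr2 was -1.92 in labelled heart TIL, 0.11 in labelled liver TIL, where its sign changed, and -0.75 in liver PC. Cxcr4 was 1.47 and 0.53, where both signs changed, and -1.31 in the same order, Cxcl2 was 6.07, 10.52 and 9.57, Cxcl2 over macrophages 4.04, 3.51 and 3.99, and Cxcl16 of macrophages over these cells 2.99, 1.64 and 1.48. The cells held 1, 6 and 28 Cxcl16 UMIs. At 3% or more the values were -2.66, -0.48 and -0.88 for Cxcr2, 1.30, -0.26 and -1.24 for Cxcr4, 5.92, 10.33 and 9.49 for Cxcl2, 3.87, 3.23 and 3.82 for Cxcl2 over macrophages, and 2.76, 1.77 and 1.49 for Cxcl16.

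Of all genes in the Csf3r gate, 2978 were higher and 1292 lower in labelled heart TIL, 1432 and 1579 in labelled liver TIL, and 2440 and 918 in liver PC. At 3-fold these were 1557 and 800, 589 and 824, and 1066 and 419. With at least 30 UMIs the higher genes numbered 1808, 794 and 1599.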
